A study of Mus musculus with 4 samples.

Results

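Fabp1, Fabp2, Fabp4, Fabp5 and Fabp7, which encode fatty acid binding proteins, Cd36, which encodes a fatty acid translocase of the cell surface, and Slc27a2 and Slc27a5, which encode fatty acid transport proteins, were followed through the single cells of mouse liver. Their rows were taken by gene symbol, 8 of the 31053 genes measured, and each symbol had 1 row. Which cell type held which of the 8 genes, and how this differed between libraries, is described below.

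Long-chain fatty acids enter a cell by crossing or being carried through its membrane, are bound in the cytosol by small fatty acid binding proteins, and are linked to coenzyme A before they are burned, stored or exported. CD36 is a scavenger receptor that eases their uptake at the surface, while the SLC27 proteins are acyl-CoA synthetases of membranes that trap the fatty acid by activating it. The liver is known for FABP1 in hepatocytes, and FABP4 and FABP5 are known from adipocytes, capillary endothelium and macrophages.

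The study is titled as a map of the course from obesity to hepatocellular carcinoma in C57BL/6 mice on a CD-HFD, and the comparisons asked how liver cells differed with the AFP label and with tumour. The 4 libraries were control (titled control diet), low-AFP (titled CD-HFD), high-AFP (titled control diet, while its file name says CD-HFD) and HCC (a cell suspension from the tumour region), so the groups are named here by AFP label and not by diet. AFP is alpha-fetoprotein, a fetal serum protein measured in liver tumour care, and HCC is hepatocellular carcinoma. All 4 came from C57BL/6 mice, given as 15 months in the titles and 17 months in the age field, and the labels give no number of animals. Per the protocol, which is worded alike for all 4, hepatocyte and cholangiocyte fractions were purified on Percoll, the remaining cells were sorted for live cells, and both were mixed in equal parts before loading on a 10x Genomics droplet instrument, so shares of cell types are partly set by the mixing. Each group was 1 library, no test could be made, and every difference below describes these libraries only.

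The deposited barcodes held 71957655, 80505127, 97393862 and 65326793 unique molecular identifiers (UMIs) from control through low-AFP and high-AFP to HCC. After filters, 6036, 5129, 7902 and 7491 cells were kept, with a median of 5442, 7395, 6292.5 and 4686 UMIs. Barcodes with more than 30% mitochondrial UMIs were 42.7%, 42.0%, 26.5% and 8.19% of those deposited. Pairs of libraries shared 2 to 26 kept barcodes, at most 0.897% of the cells of a library. Levels are summed UMIs of a cell class per 1000000 nuclear-encoded UMIs (CPM), and intervals are exact 95% Poisson intervals that cover counting error only. Lists of 4 values run from control through low-AFP and high-AFP to HCC. Counts come from the 3′ ends of RNA and levels are compared within a gene, never between genes.

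Clusters were formed without the 8 genes and named by marker lists, which gave 12 classes. The hepatocyte-like class had 2426, 1973, 3378 and 803 cells, the endothelial-like class 1510, 825, 1288 and 86, and the macrophage-like class 533, 656, 1116 and 390. No defining marker of these 3 classes was at 0 in any library, and the 10 hepatocyte markers summed to 107840, 75513, 54620 and 43440 CPM in hepatocyte-like cells. The clusters behind each class differed between libraries. Of hepatocyte-like cells in HCC, 47.7% were in cluster 18, led by Cyp2a4, Tspan8 and Afp, and 34.9% in cluster 4, whereas 64.8% of those in control were in cluster 0, led by Etnppl, Cyp2f2 and Hal. Of endothelial-like cells, 82.6% in HCC were in cluster 26, led by Rspo3 and Vwf, and 73.6% in control in cluster 1. Median depth also differed, with 14215, 18563, 13616 and 2472 UMIs per hepatocyte-like cell.

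RefSeq promoters of GRCm38.p6 were at hand for 5 of the 8 genes, Fabp1, Fabp2, Fabp7, Cd36 and Slc27a2, and 3 are shown because their levels mark 3 different cell classes below, Fabp1 the hepatocyte-like, Cd36 the endothelial-like and Fabp7 the macrophage-like. Each line gives the 250 bases before the annotated start on the gene's strand, 5′ to 3′, with the hexamer AGGTCA, which reads as TGACCT when it lies on the other strand, in capitals; these are the core letters bound by many nuclear receptors including the fatty acid sensors of the PPAR family.
Fabp1: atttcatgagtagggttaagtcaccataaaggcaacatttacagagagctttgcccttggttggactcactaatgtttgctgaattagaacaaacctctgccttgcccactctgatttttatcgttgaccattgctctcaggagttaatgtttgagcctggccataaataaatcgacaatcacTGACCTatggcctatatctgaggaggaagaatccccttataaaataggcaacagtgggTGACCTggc
Cd36: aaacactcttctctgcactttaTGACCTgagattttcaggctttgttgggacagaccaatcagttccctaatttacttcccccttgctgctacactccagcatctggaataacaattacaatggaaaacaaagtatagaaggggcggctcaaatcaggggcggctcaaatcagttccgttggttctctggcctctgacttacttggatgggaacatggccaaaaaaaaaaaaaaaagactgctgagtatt
Fabp7: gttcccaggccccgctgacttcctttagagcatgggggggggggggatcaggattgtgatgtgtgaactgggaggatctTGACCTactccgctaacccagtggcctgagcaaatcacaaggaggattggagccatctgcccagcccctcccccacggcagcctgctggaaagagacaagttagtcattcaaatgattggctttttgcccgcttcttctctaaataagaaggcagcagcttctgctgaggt
These windows are chr6:71199629-71199878 on the plus strand for Fabp1, chr5:17835897-17836146 on the minus strand for Cd36 and chr10:57784673-57784922 on the plus strand for Fabp7. The hexamer began at −67 and −9 in Fabp1, counting −1 as the last base before the start, at −228 in Cd36 and at −171 in Fabp7, and at −220 in Slc27a2, while the Fabp2 window held none. Over all 32851 promoter windows of this length, 14.02% held it on either strand, so its presence in 4 of 5 windows is a description of letters and not of binding. The Fabp1 window also held TATAAA at −30, which 12.4% of all windows held on either strand.

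Fabp1, the abundant cytosolic fatty acid binding protein of hepatocytes, was by far highest in hepatocyte-like cells of every library. Its level there was 15753 CPM (interval 15706 to 15799) for control, 19963 (19917 to 20009) for low-AFP, 18820 (18780 to 18860) for high-AFP and 15542 (15440 to 15645) for HCC. The class next in order was B-like cells in control at 2231 CPM, neutrophil-like cells in low-AFP and high-AFP at 2418 and 7038 CPM, and T-like cells in HCC at 230 CPM. The hepatocyte-like level was thus 7.06, 8.26, 2.67 and 67.7 times that of the next class, and the order below it was largely one of immune classes. Fabp1 UMIs were found in 98.8%, 97.6%, 99.4% and 34.7% of T-like cells, a class that should lack the gene. As a gauge of free hepatocyte RNA, the UMIs of 9 other hepatocyte genes (Alb, Apoa1 and the like) were counted in the same cells. Fabp1 in the other classes was 0.641 to 1.46 times the amount these would carry at the hepatocyte ratio in control. It was 0.293 to 0.898 times in low-AFP, 0.369 to 1.55 times in high-AFP and 0.308 to 0.631 times in HCC. Fabp1 in the other named classes is not read as their own expression here, and the part of free hepatocyte RNA in it was not tested. The unnamed cells of HCC are described below.

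Fabp2, the intestinal-type binding protein, was also highest in hepatocyte-like cells, at 268 CPM (262 to 274) for control, 368 (362 to 374) for low-AFP, 394 (388 to 400) for high-AFP and 584 (564 to 604) for HCC. The 4 intervals were apart, and HCC was the highest. In other classes it was at most 77.7 CPM, and from 0.474 to 2.28 times the amount that free hepatocyte RNA would carry. Slc27a2, a very long-chain acyl-CoA synthetase that also takes up fatty acids, ran the other way, at 438 CPM (431 to 446) for control, 364 (358 to 370) for low-AFP, 256 (251 to 261) for high-AFP and 131 (122 to 141) for HCC. Slc27a5, the bile acyl-CoA synthetase of hepatocytes, stood at 294 CPM (287 to 300.1) for control, 204 (199 to 208) for low-AFP, 203 (199 to 207) for high-AFP and 53.5 (47.6 to 59.8) for HCC. Both SLC27 genes were lowest in HCC, and for Slc27a5 the intervals of low-AFP and high-AFP overlapped. The next class reached at most 59.6 CPM for Slc27a2 and 34.0 CPM for Slc27a5.

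Of all Fabp1 UMIs, hepatocyte-like cells held 94.5%, 97.6%, 96.3% and 68.9% from control through low-AFP and high-AFP to HCC, and of Fabp2 UMIs 92.2%, 96.2%, 94.8% and 57.1%. In HCC another 27.1% of Fabp1 UMIs and 38.2% of Fabp2 UMIs lay in unnamed cells. Cluster 22 held 33257 of these 34750 Fabp1 UMIs, at a level of 33931 CPM in HCC, above that of the hepatocyte-like class. For Slc27a2, hepatocyte-like cells held 96.3%, 97.0%, 96.9% and 86.9% of UMIs, and for Slc27a5 96.8%, 97.8%, 97.6% and 79.0%, so the 4 hepatocyte members had the same main class in every library.

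**Figure D1:**
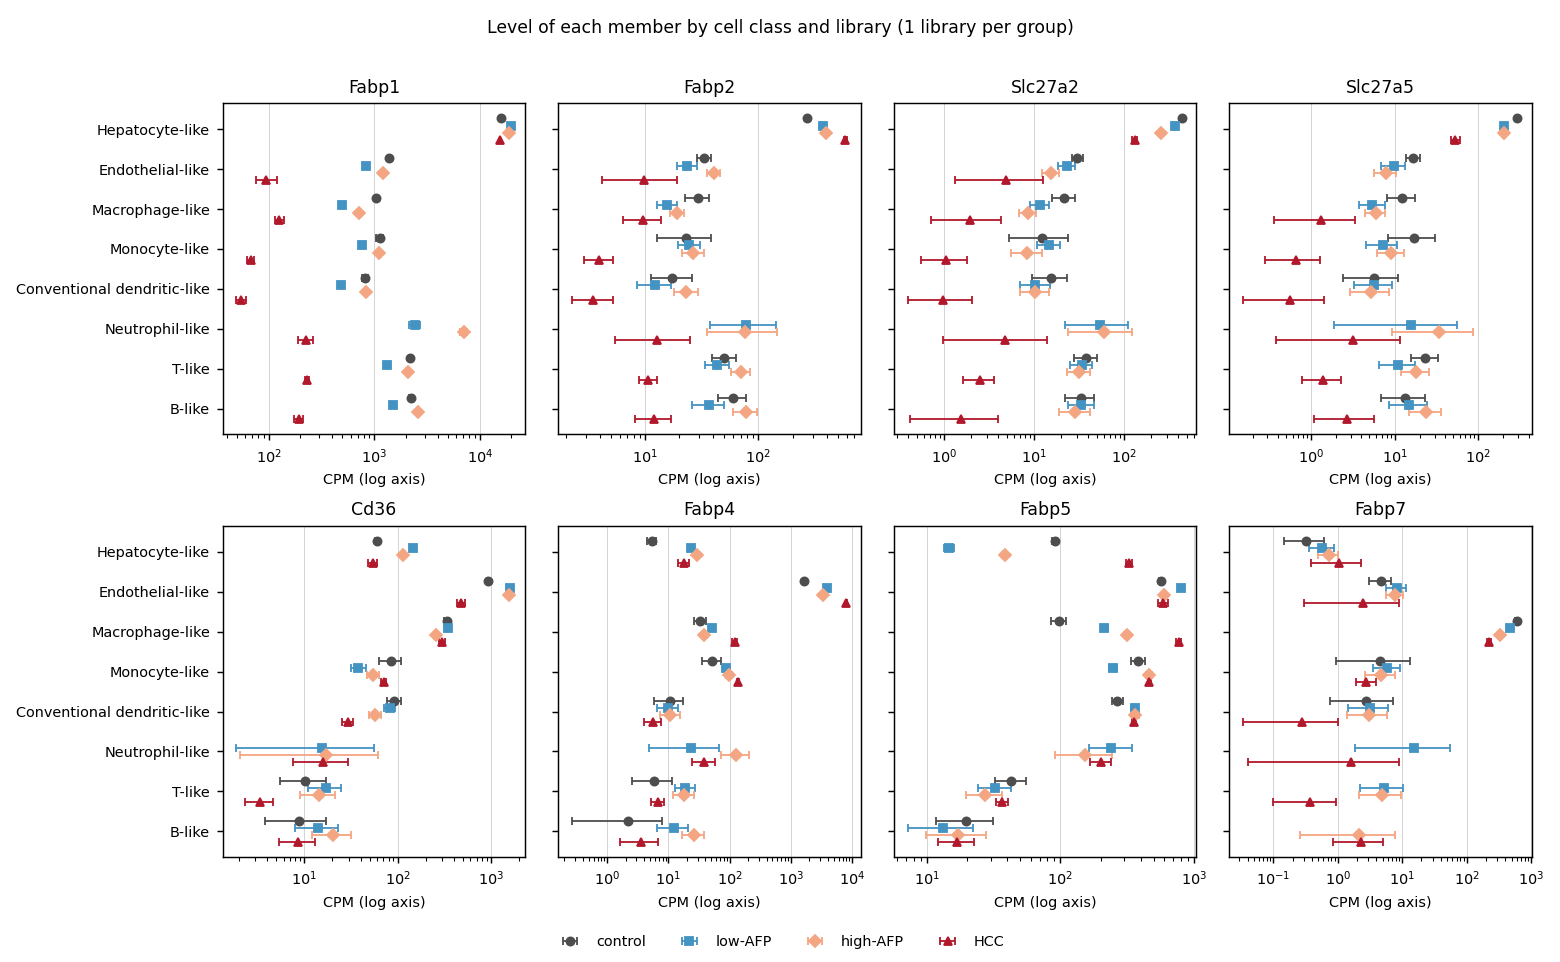
Level of each of the 8 genes (CPM, log axis) by cell class, with 1 point per library (control, low-AFP, high-AFP, HCC) and exact 95% Poisson bars, for 8 classes with at least 50 cells; zeros are not drawn. Fabp1, Fabp2, Slc27a2 and Slc27a5 peak in hepatocyte-like cells, Fabp4 and Cd36 in endothelial-like cells and Fabp7 in macrophage-like cells, while Fabp5 is spread over several classes.

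Among hepatocyte-like cells, the level of Fabp1 ranged more widely over clusters than over libraries. Cluster 4, a cluster of low depth present in all 4 libraries, had 27799, 27877, 31840 and 31712 CPM of Fabp1 from control through low-AFP and high-AFP to HCC, whereas cluster 20, led by Chka and Neat1, had 3788, 2025 and 3028 CPM in control, low-AFP and high-AFP. Cluster 18, with 383 cells in HCC and 73 in high-AFP, had 8733 CPM in HCC and 17757 CPM in high-AFP. The SLC27 genes were lower in cluster 4 than in cluster 0 in each library with at least 50 cells of both. Slc27a5 was at 99.5, 68.4, 25.1 and 30.4 CPM in cluster 4 from control through low-AFP and high-AFP to HCC, against 305, 257 and 274 CPM in cluster 0 of control, low-AFP and high-AFP. In cluster 18, Slc27a5 was at 35.7 CPM in HCC and 120 CPM in high-AFP, and Slc27a2 at 98.9 CPM in HCC and 205 CPM in high-AFP. Within cluster 4 alone the HCC and high-AFP libraries were close, with Slc27a2 at 52.2 and 51.9 CPM.

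**Figure D2:**
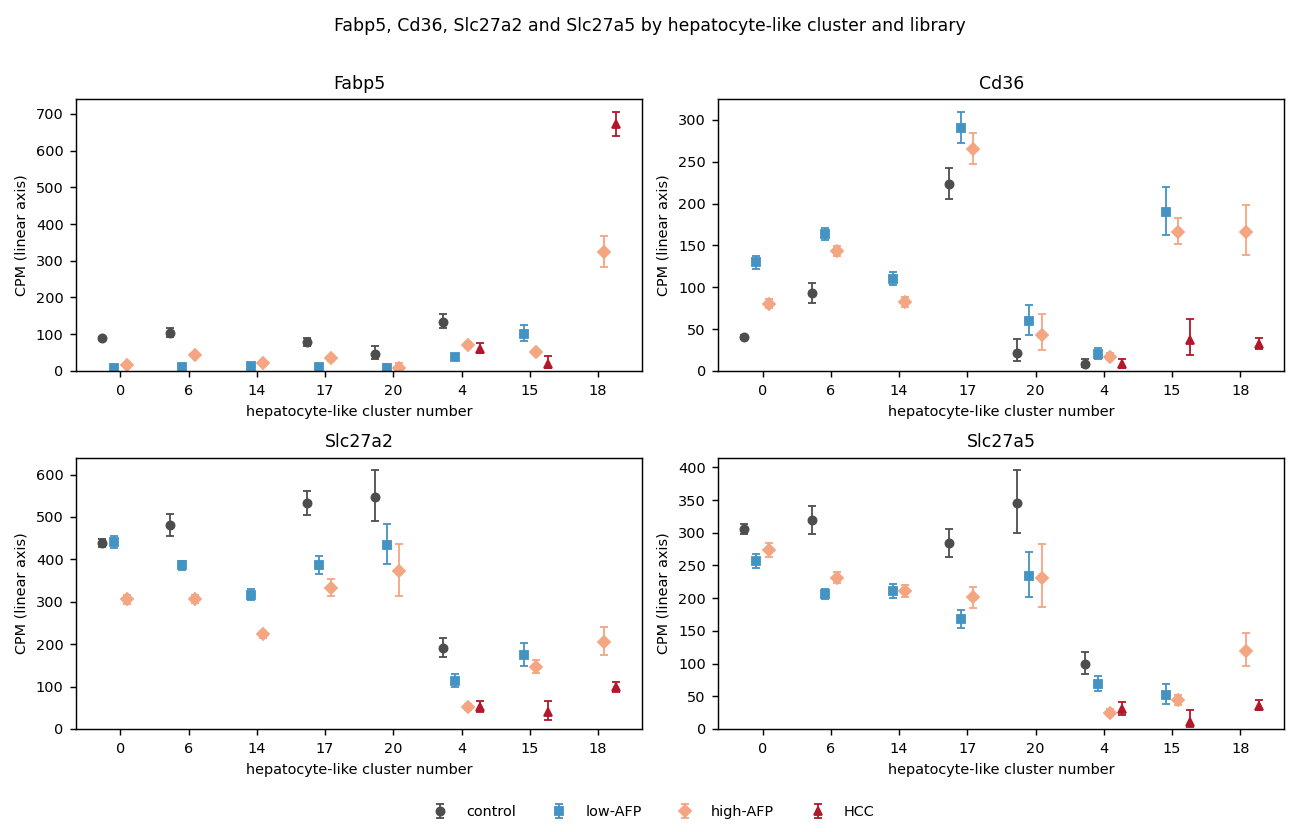
Level of the members (CPM) in hepatocyte-like clusters with at least 50 cells in a library, by library, with exact 95% Poisson bars. Fabp5 in cluster 18 stands at 672 CPM in HCC and 323 CPM in high-AFP, above every other cluster and library drawn, where it is at most 134 CPM.

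To place the members along the liver lobule, hepatocyte-like cells of each library with a UMI of either list were cut into 3 equal parts by the share of pericentral marker UMIs in pericentral plus periportal marker UMIs. The parts are ranges of a score and not cell types: 1286 of 2426 cells in control lay within 0.02 of the lower cut, against 377, 381 and 37 cells in low-AFP, high-AFP and HCC. Fabp1 was higher in the pericentral than in the periportal part of every library, with 18901 against 14030 CPM in control, 25678 against 15736 in low-AFP, 27989 against 13140 in high-AFP and 20390 against 8147 in HCC. The ratio was 1.35, 1.63, 2.13 and 2.50. Fabp2 had ratios of 1.79, 1.56, 2.41 and 3.31, and Cd36 ratios of 2.57, 1.58, 1.88 and 2.27. These 3 genes were thus above 1 in all 4 libraries. Slc27a2 stayed near even in 3 libraries, at 1.13, 0.90 and 1.01 in control, low-AFP and high-AFP, and was at 1.74 in HCC. Slc27a5 had ratios of 1.00, 0.77, 0.76 and 2.11, and Fabp5 of 1.37, 2.86, 3.33 and 0.94. Median depth differed with the score. It was 10892 UMIs per cell in the pericentral and 17418 in the periportal part of control, but 20526 and 16640 in those parts of low-AFP. For HCC the medians were 2149 UMIs in the pericentral and 3327.5 in the periportal part. Cluster 17, led by Slc1a2, Glul and Cyp2e1, had 32 cells in HCC at a median of 48623 UMIs. Levels are summed UMIs, so deep cells weigh more in them. The part of depth, and of these 32 cells in HCC, in the ratios was not tested. Cluster 22, with 365 unnamed cells in HCC and Glul at 9493 CPM there, was not hepatocyte-like by name and lay in none of these parts. In HCC it had 33931 CPM of Fabp1 and 2223 CPM of Fabp2. Slc27a2 was at 27.5, Slc27a5 at 29.6, Cd36 at 16.3 and Fabp5 at 43.9 CPM. The HCC ratios leave these cells out, and ratios with them were not tested.

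**Figure D3:**
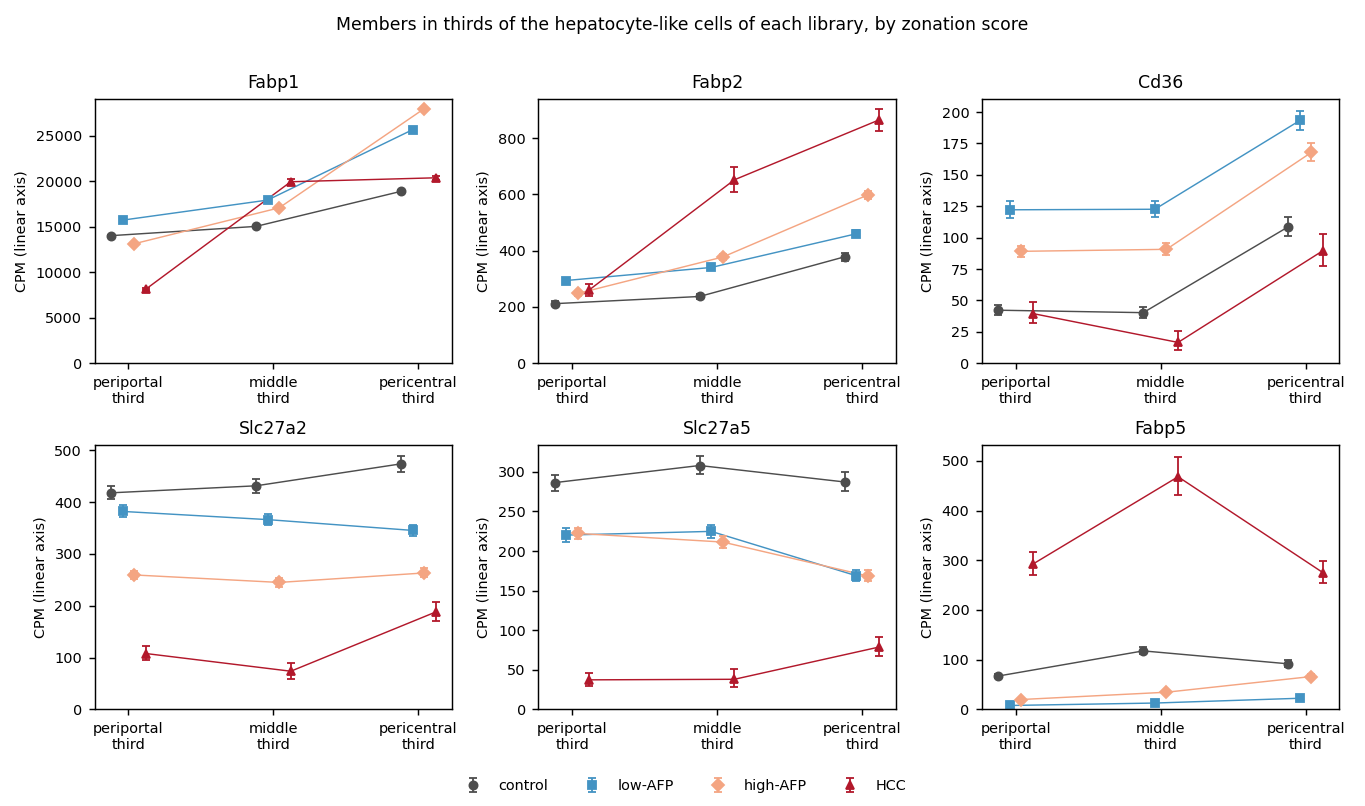
Level (CPM) of 6 members in the periportal, middle and pericentral parts of hepatocyte-like cells, 1 line per library, with exact 95% Poisson bars. Fabp1, Fabp2 and Cd36 are higher in the pericentral than in the periportal part in all 4 libraries, with ratios of 1.35 to 2.50, 1.56 to 3.31 and 1.58 to 2.57.

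Cd36 was highest in endothelial-like cells of every library and came next in macrophage-like cells, or in control in mesenchymal-like cells. In hepatocyte-like cells it was at 60.6 CPM (57.7 to 63.6) for control, 147 (143 to 151) for low-AFP, 113 (109.8 to 116) for high-AFP and 53.8 (48.0 to 60.2) for HCC, so low-AFP was highest and control and HCC overlapped. After each cell was thinned to 1000 UMIs, a Cd36 UMI was found in 4.34%, 9.77%, 7.23% and 1.83% of hepatocyte-like cells and in 0.882%, 1.11%, 0.437% and 0.290% of T-like cells. Thinning left out 27, 48, 114 and 147 shallower hepatocyte-like cells, and before it the hepatocyte-like shares were 32.6%, 64.5%, 50.8% and 9.96%. The level was higher in low-AFP than in control within cluster 0 (130 against 40.3 CPM), cluster 6 (164 against 92.6 CPM) and cluster 17, the Glul and Cyp2e1 cluster (291 against 223 CPM). In cluster 4 alone the log2 fold of low-AFP over control was 0.74, within 2-fold, against 1.16 over the class. In cluster 18, Cd36 was at 32.2 CPM in HCC and 166 CPM in high-AFP. Hepatocyte-like cells held 19.0%, 36.8%, 29.9% and 10.7% of all Cd36 UMIs, and endothelial-like cells 64.6%, 44.4%, 52.8% and 13.7%.

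Fabp4 in hepatocyte-like cells was low, at 5.32, 23.5, 28.9 and 17.8 CPM from control through low-AFP and high-AFP to HCC. In T-like cells, which should lack it, the level was 5.81, 18.8, 17.97 and 6.65 CPM, and the intervals of both classes overlapped in control and low-AFP. T-like cells, like hepatocyte-like cells, were thus higher in low-AFP and high-AFP than in control, whereas the 8 endothelial markers in hepatocyte-like cells summed to 21.6 CPM in low-AFP and 20.1 CPM in high-AFP, against 53.7 CPM in control. The part of either in the Fabp4 level was not tested. Cluster 15, which had no cells in control, held 343 of the 854 Fabp4 UMIs of hepatocyte-like cells in low-AFP and 815 of 1311 in high-AFP. The highest levels among hepatocyte-like clusters of at least 50 cells were in this cluster, led by Gsta1 and Cbr3. There Fabp4 reached 385 CPM in low-AFP, 306 CPM in high-AFP and 8.44 CPM in HCC. Of its 343 UMIs in low-AFP, 247 came from 1 cell, whereas in high-AFP 140 of 401 cells had a UMI. The endothelial genes Pecam1, Cdh5 and Kdr were each at most 4.89 CPM in that cluster. All 8 endothelial markers summed there to 8.97 CPM in low-AFP, 36.8 CPM in high-AFP and 28.1 CPM in HCC. Their part in the Fabp4 level of the cluster was not tested. Fabp7 was at 9, 21, 33 and 6 UMIs in hepatocyte-like cells of the 4 libraries.

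Fabp5, the epidermal-type binding protein, was the member that differed most between libraries in hepatocyte-like cells. It stood at 90.6 CPM (87.1 to 94.2) for control, 14.6 (13.4 to 15.9) for low-AFP, 38.3 (36.5 to 40.2) for high-AFP and 326 (312 to 342) for HCC. In T-like cells it varied less, at 42.9, 32.5, 27.3 and 36.5 CPM. The thinned share of hepatocyte-like cells with a UMI was 7.17%, 1.77%, 3.77% and 22.1%, against 3.82%, 2.77%, 2.18% and 2.61% of T-like cells. In low-AFP it was thus no higher than in T-like cells. Low-AFP and high-AFP were below control in clusters 0, 6, 17, 20 and 4 alike. In cluster 0 control had 88.6 CPM, low-AFP 6.60 and high-AFP 16.5, and in cluster 6 they were 104, 11.9 and 42.9 CPM. Cluster 18 held 1752 of the 1856 Fabp5 UMIs of hepatocyte-like cells in HCC. There 57.2% of its 383 HCC cells had a Fabp5 UMI, and the level was 672 CPM in HCC and 323 CPM in high-AFP. Afp, the fetal serum protein gene, was at 408 CPM in HCC and 199 CPM in high-AFP in the same cells. In cluster 4 alone, Fabp5 was at 60.8 CPM in HCC and 70.2 CPM in high-AFP, a log2 fold of −0.18 against 2.80 over the class. Marker sums of other classes in hepatocyte-like cells were not alike. They were 53.7, 21.6, 20.1 and 38.9 CPM for the 8 endothelial markers and 72.9, 65.0, 164 and 74.6 CPM for the 8 macrophage markers. The 9 monocyte markers summed to 8.03, 19.2, 20.03 and 56.6 CPM. Some sums were higher in HCC than in high-AFP, at 72.8 against 4.71 CPM for mesenchymal and 132 against 32.6 for plasmacytoid dendritic markers. Others of this kind were 191 against 77.9 for erythroid, 103 against 40.3 for cholangiocyte and 52.1 against 4.05 for T cell markers. So were 34.8 against 1.56 for NK, 23.4 against 1.52 for B and 19.9 against 6.98 CPM for conventional dendritic markers. Plasma cell markers were lower in HCC, at 364 against 486 CPM, and neutrophil markers were close, at 202 against 200 CPM. The part of all these in the Fabp5 levels was not tested. GENCODE M21 lists a processed pseudogene of Fabp5, so reads that match both could be assigned to either and its counts are uncertain to that extent.

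Genes were counted as at least 2-fold different on log2 of CPM plus 10, when at 10 CPM or more in either library. In hepatocyte-like cells 7 of the 8 members were measured, all but Fabp7. In low-AFP against control, Fabp4 (log2 fold 1.13) and Cd36 (1.16) were higher, 2 of 7 members against 0.99% of the 6971 genes measured, and Fabp5 (−2.03) was lower, 1 of 7 against 0.473%. In high-AFP against control, Fabp4 was higher (1.34), beside 1.48% of 7038 genes, and Fabp5 lower (−1.06), beside 0.71%, while Cd36 was at 0.80. In high-AFP against low-AFP no member passed either way, where 0.242% and 0.142% of 7036 genes were higher and lower. Fabp5, at 38.3 CPM in high-AFP and 14.6 CPM in low-AFP, lay near the limit there and passed under 5 other settings, at log2 folds of 1.00 to 1.33. In HCC against high-AFP, Fabp5 was higher (2.80), beside 6.97% of 7948 genes, and Slc27a5 lower (−1.75), beside 3.52%. Low-AFP and high-AFP were set against the same control library, so these counts are not independent. Slc27a2 in HCC against high-AFP was at −0.91 and Fabp2 at 0.56, both within 2-fold. With a mitochondrial limit of 15% the Fabp4 folds in low-AFP and high-AFP against control were 0.30 and 0.45, and without doublet removal 0.68 and 0.98. Without the cell of the highest count in each library, the low-AFP fold was 0.82. High-AFP against control also lost Fabp5 with CPM over all UMIs (−0.93), and Fabp2 in HCC against high-AFP was at 1.41 and 1.37 at clustering resolutions of 0.5 and 2.

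Fabp4, the adipocyte and capillary binding protein, was highest in endothelial-like cells of every library, which held 90.9%, 89.3%, 90.0% and 73.4% of its UMIs. Its level there was 1649 CPM (1617 to 1681) for control, 3948 (3887 to 4010) for low-AFP, 3408 (3361 to 3455) for high-AFP and 8059 (7866 to 8256) for HCC. All 4 intervals were apart, with HCC highest and control lowest. The thinned share of cells with a UMI was 48.5%, 84.1%, 79.7% and 97.7%, against 0.294% to 1.94% of T-like cells. Cd36 in endothelial-like cells was at 925 CPM (902 to 949) for control, 1610.5 (1571 to 1650) for low-AFP, 1535 (1504 to 1567) for high-AFP and 480 (434 to 530) for HCC, so HCC was below control here. Fabp5 varied less, at 568, 795, 599 and 589 CPM, and only low-AFP stood apart from the other 3.

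The endothelial-like cells of HCC were of another make-up, since sinusoidal markers summed to 14991, 11581, 11398 and 1970 CPM and vascular markers to 1273, 1668, 1516 and 4658 CPM. Only 8 of the 86 HCC cells were in sinusoidal-like clusters. Within sinusoidal-like cells, Fabp4 stood at 1364, 3417 and 2924 CPM for control, low-AFP and high-AFP, and Cd36 at 880, 1829 and 1709 CPM, so both were higher in low-AFP and high-AFP than in control in the same sub-type. Within vascular-like cells, Fabp4 was at 2388, 4810, 4678 and 8352 CPM and Cd36 at 1043, 1257, 1081 and 420 CPM from control through low-AFP and high-AFP to HCC. Cluster 26 alone had 38, 48, 101 and 71 cells, and there Fabp4 was at 7207, 7554, 6396 and 8669 CPM and Cd36 at 250, 423, 307 and 384 CPM. For Fabp4 and Cd36, HCC and high-AFP were thus closer together in that cluster. Their log2 folds of HCC over high-AFP were 0.44 and 0.31 there, against 1.24 and −1.66 over the class. Fabp5 and Fabp7 lay further apart in the same cluster, each past 2-fold, at 1.22 and −1.37.

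**Figure D4:**
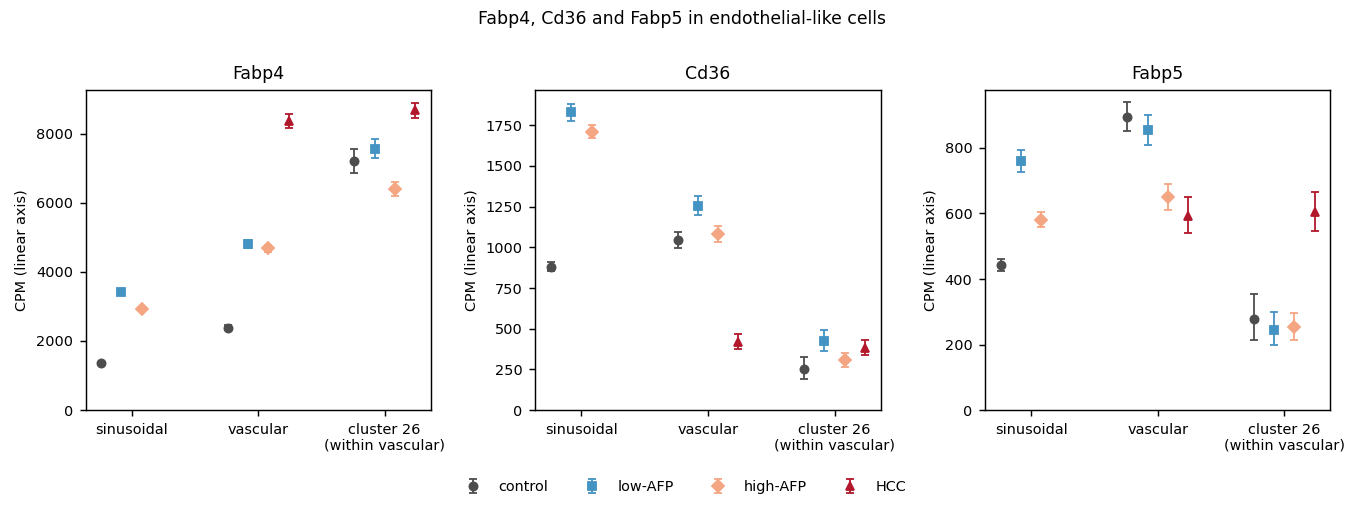
Level (CPM) of Fabp4, Cd36 and Fabp5 in sinusoidal-like cells, vascular-like cells and cluster 26 with at least 30 cells in a library, by library, with exact 95% Poisson bars. Fabp4 is higher in low-AFP and high-AFP than in control in sinusoidal-like and vascular-like cells, and within cluster 26 it lies between 6396 and 8669 CPM in all 4 libraries.

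In endothelial-like cells Fabp4 was the member counted as at least 2-fold higher in low-AFP against control (log2 fold 1.25), 1 of 7 measured beside 0.727% of 9213 genes, and none was lower, beside 0.326%. Fabp7 was not measured at 10 CPM, nor was Slc27a5 in the 2 comparisons of 6 members. In high-AFP against control it was Fabp4 again (1.04), beside 0.999% of 9205 genes higher and 0.402% lower, with the control library shared. With a mitochondrial limit of 15% this fold was 0.99. In high-AFP against low-AFP none of 6 passed, beside 0.12% and 0.0871% of 9181 genes. In HCC against high-AFP, Fabp4 (1.24) was higher, 1 of 6 beside 3.74% of 9433 genes, and Fabp1 (−3.55), Fabp2 (−1.35) and Cd36 (−1.66) were lower, 3 of 6 beside 5.99%. The 9 hepatocyte genes named above made up 0.121% of endothelial-like UMIs in HCC and 0.583% in high-AFP, and their part in the Fabp1 and Fabp2 folds was not tested.

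Fabp7, the brain-type binding protein, was nearly confined to macrophage-like cells among the classes measured, which held 93.0%, 96.2%, 96.2% and 91.6% of its UMIs. Its level was 599 CPM (568 to 631) for control, 467 (449.9 to 484) for low-AFP, 331 (320 to 343) for high-AFP and 222 (206 to 240) for HCC. The 4 intervals were apart and followed that order downwards. Mesenchymal-like cells of control came next at 64.4 CPM over 108 cells, and no other class with at least 50 cells was above 15.6 CPM. Fabp5 in macrophage-like cells ran the opposite way, at 97.6 CPM (85.5 to 111), 214 (203 to 226), 314 (303 to 325) and 772 (741 to 804). Cd36 was at 333, 346, 258 and 299 CPM, and the interval of control overlapped those of low-AFP and HCC. Fabp4 was at 32.5, 52.4, 38.5 and 121 CPM, and 190 of its 367 UMIs in HCC came from 1 cell. Cluster 16, at a median of 957 UMIs, held 18.6%, 14.3%, 14.1% and 53.6% of macrophage-like cells. Markers of other classes moved too, with 4.23, 5.11, 8.41 and 2152 CPM for the 6 erythroid markers, 5668, 2414, 1984 and 734 CPM for the 10 hepatocyte markers and 689, 273, 296 and 205 CPM for the 8 endothelial markers. Their part in the levels of this class was not tested.

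The macrophages could be split by markers at a finer clustering, a step chosen after the class values were seen. It gave 465, 457, 775 and 331 Kupffer-like cells, the resident macrophages of the sinusoids, and 76, 268, 457 and 188 lipid-associated macrophage-like cells, known for Trem2 and Gpnmb. The second sub-type made up 14.05% of macrophages in control and 37.0%, 37.1% and 36.2% in low-AFP, high-AFP and HCC. At the clustering used elsewhere it was far smaller, with 12 of 533, 30 of 656, 33 of 1116 and 12 of 390 cells from control through low-AFP and high-AFP to HCC, so its size depends on the clustering. Fabp7 lay in the Kupffer-like cells, at 792, 693, 476 and 272 CPM from control through low-AFP and high-AFP to HCC, against 20.9, 63.9, 65.1 and 37.7 CPM in the lipid-associated cells. Within Kupffer-like cells it was therefore lower in HCC than in high-AFP and lower in high-AFP than in low-AFP. Clec4f, a lectin of Kupffer cells, ran with it, at 3261, 2501, 2023 and 1376 CPM, and 30.8% of these cells had a Clec4f UMI in HCC against 79.8% in control. Their fine clusters also differed, since 228 of 331 in HCC were in a cluster with a median of 1626 UMIs, against 119 of 465 in control, and the part of this in the Fabp7 levels was not tested. Fabp5 was higher in the lipid-associated cells, at 210 (177 to 248), 418 (395 to 442), 654 (630.2 to 678) and 2299 (2240.0 to 2360) CPM, than in Kupffer-like cells, at 63.8, 93.3, 179 and 245 CPM. In both sub-types it stood in the same order of libraries, with HCC highest. In HCC 5679 Fabp5 UMIs were spread over 70.2% of the 188 lipid-associated cells, and the cell with most held 355. The sub-type took in other cells at this clustering, so these UMIs exceed the 2339 of the whole macrophage-like class above. Cd36 went with Kupffer-like cells in control, at 410 CPM against 112 CPM in lipid-associated cells, but in HCC both were close, at 251 and 294 CPM with overlapping intervals. Median depth differed, at 2824, 7018, 7016 and 1832 UMIs in Kupffer-like and 8378.5, 11322, 9328 and 13456 UMIs in lipid-associated cells, and its part in these levels was not tested.

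**Figure D5:**
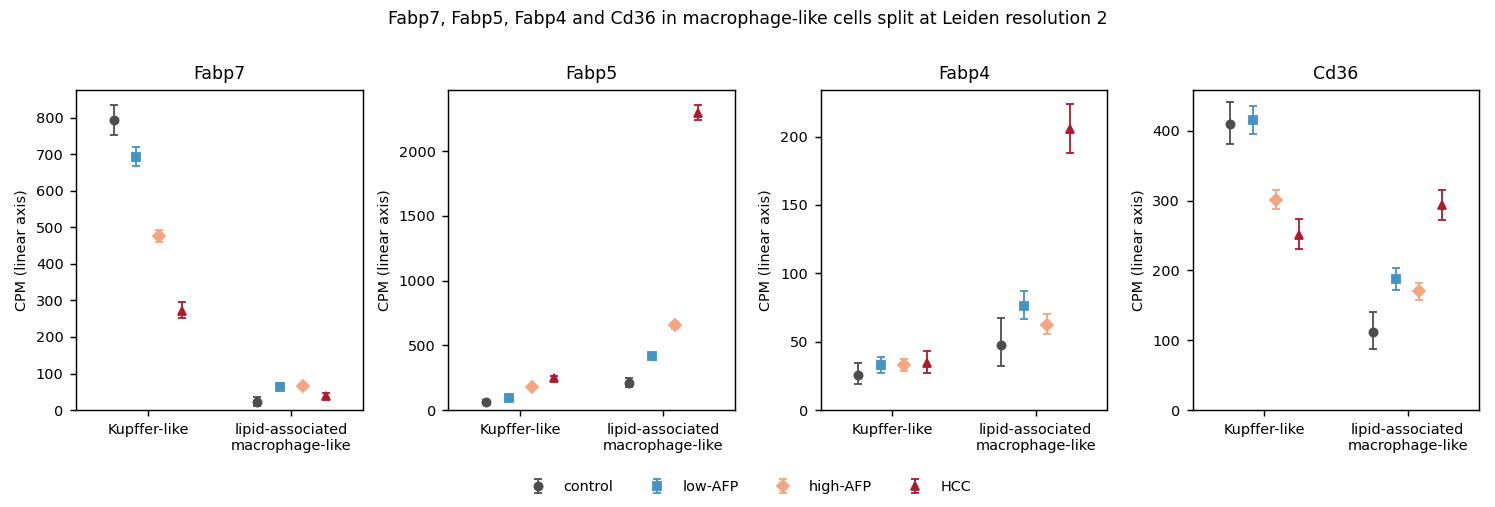
Level (CPM) of Fabp7, Fabp5, Fabp4 and Cd36 in Kupffer-like and lipid-associated macrophage-like cells by library, with exact 95% Poisson bars. Fabp7 in Kupffer-like cells goes from 792 CPM in control through 693 and 476 CPM to 272 CPM in HCC, and Fabp5 in lipid-associated cells from 210 CPM in control through 418 and 654 CPM to 2299 CPM in HCC.

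In macrophage-like cells all 8 members were measured in low-AFP against control, of which Fabp5 was higher (log2 fold 1.06), beside 0.312% of 8664 genes, and Fabp1 lower (−1.06), beside 1.07%. In high-AFP against control, Fabp5 was higher (1.59), beside 0.221% of 8595 genes, and none lower, beside 1.5%. In high-AFP against low-AFP none of 7 passed, all but Slc27a5, beside 0.0847% and 0.0726% of 8264 genes. In HCC against high-AFP, where neither SLC27 gene was measured, Fabp4 (1.43) and Fabp5 (1.27) were higher, 2 of 6 beside 0.368% of 8150 genes, and Fabp1 (−2.41) was lower, beside 1.28%. Fabp4 was at 0.61 without the cell of the highest count in each library and at −0.13 without doublet removal, which also put Fabp5 in low-AFP against control at 0.74. Fabp1 in low-AFP against control was at −0.95 with a mitochondrial limit of 15%, at −0.88 with at least 1000 UMIs, at −0.99 with CPM over all UMIs and at −0.89 in cluster 2 alone. The 9 hepatocyte genes were 0.131% of macrophage-like UMIs in HCC and 0.365% in high-AFP, and their part in the Fabp1 folds was not tested.

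Monocyte-like and dendritic-like cells held Fabp4, Fabp5 and Cd36 at levels that differed by sub-type. Fabp4 was higher in patrolling than in classical monocyte-like cells of every library, at 366 against 17.0 CPM in control, 735 against 63.9 in low-AFP, 558 against 74.0 in high-AFP and 694 against 50.2 in HCC. Cd36 was likewise higher in patrolling cells, at 238 against 67.9, 221 against 31.6, 100.3 against 52.2 and 238 against 45.1 CPM. Patrolling cells numbered 12, 18, 39 and 265, so only the HCC values rest on many cells. Fabp5 had the other pattern, at 63.6, 82.7, 69.0 and 75.5 CPM in patrolling and 416, 252, 483 and 521 CPM in classical monocyte-like cells. Among dendritic cells, Fabp5 was highest in migratory cells, which carry antigen to lymph nodes, at 1454, 2645, 2396 and 2546 CPM over 20, 26, 46 and 89 cells, against 29.0, 40.8, 34.6 and 21.2 CPM in type 1 and 303, 143, 117 and 96.8 CPM in type 2 conventional dendritic-like cells. Cd36 was higher in type 1 cells, at 155, 157, 130 and 92.9 CPM against 2.23, 9.62, 10.1 and 2.48 CPM in type 2 cells.

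Mesenchymal-like cells were numerous enough only in control, where they had 605 CPM of Fabp4 and 452 CPM of Cd36, next after endothelial-like cells, and 231 CPM of Fabp5. Cholangiocyte-like cells had 195, 231 and 257 CPM of Fabp5 in control, low-AFP and high-AFP. In T-, B- and NK-like cells, Fabp5 was at most 42.9 CPM and Cd36 at most 20.3 CPM. In HCC, monocyte-like cells, 1203 in number, held 40.4% of all Fabp5 UMIs and 30.2% of all Cd36 UMIs, while endothelial-like cells, 86 in number, held 3.43% and 13.7%. At the finer clustering above, lipid-associated macrophage-like cells of HCC held 5679 Fabp5 UMIs, more than the whole macrophage-like class at the clustering used here. Shares of Fabp5 by class can thus depend on the clustering, and the monocyte-like share was not tested at the finer one.

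Another 29 genes of fatty acid uptake, binding and activation were counted beside the members. In hepatocyte-like cells, Lpl, which encodes the lipase that frees fatty acids from lipoproteins, was the only one at least 2-fold higher. In low-AFP against control it was at 25.3 against 1.82 CPM (log2 fold 1.58), 1 of 17 measured beside 0.99% of 6971 genes. In high-AFP against control it was at 17.9 against 1.82 CPM (1.24), 1 of 17 beside 1.48% of 7038 genes. In HCC against high-AFP it was at 112 against 17.9 CPM (2.13), 1 of 16 beside 6.97% of 7948 genes. Lpl was higher in macrophage-like cells, at 1509, 1926, 1311 and 1687 CPM for control, low-AFP, high-AFP and HCC, and their part in the hepatocyte-like levels was not tested. Acsl1, a long-chain acyl-CoA synthetase, and Mfsd2a, a lysolipid transporter, were lower in HCC than in high-AFP, at 152 against 422 CPM and 6.16 against 70.4 CPM. They were 2 of 16 measured, beside 3.52% of 7948 genes. The list's median log2 fold was 0.08, 0.05, −0.09 and −0.35 in low-AFP against control, high-AFP against control, high-AFP against low-AFP and HCC against high-AFP, beside 0.04, 0.05, 0.02 and 0.21 over all genes measured. In endothelial-like cells none of the list passed in the 3 comparisons without HCC. In HCC against high-AFP 4 of 17 were higher and 5 lower. Among them were Cav1, the coat protein of caveolae, at 290 against 32.9 CPM, and Scp2, a lipid carrier, at 246 against 675 CPM. The list median was −0.35 beside −0.08 over all genes measured. Scp2 stood at 3935 CPM in hepatocyte-like cells of HCC and 5265 CPM in those of high-AFP. The 10 hepatocyte markers in endothelial-like cells summed to 869 CPM in HCC and 3423 CPM in high-AFP. Endothelial-like cells of HCC were also of another make-up, as described above. The part of hepatocyte RNA and of make-up in these folds was not tested. Gpihbp1, which anchors the lipase on capillaries, was highest in endothelial-like cells at 1922, 1752, 1695 and 1980 CPM from control through low-AFP and high-AFP to HCC. In macrophage-like cells Gpihbp1 alone passed, lower in high-AFP than in control at 7.16 against 24.9 CPM, 1 of 15 measured beside 1.5% of 8595 genes. The 8 endothelial markers in these cells summed to 296 CPM in high-AFP and 689 CPM in control, and their part in this fold was not tested.

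The genes whose levels ran most like each member were sought over the 41 sums of a class and library with at least 50 cells, among 7944 genes. They are a description, since sums of a library share its depth and free RNA. Fabp1 was closest to Apoc4 (Pearson r 0.994), Slc27a2 to Apof (0.984) and Slc27a5 to Dmgdh (0.982). Fabp7 was closest to Clec4f (0.982) and Cd207, Fabp4 to Nrp2 (0.938) and Thbd, Cd36 to Dusp3 (0.926) and Fcgrt, and Fabp5 to Ralb (0.878). Of the members themselves, Slc27a2 and Slc27a5 had an r of 0.95, Fabp1 and Fabp2 0.94, Cd36 and Fabp4 0.79, and Cd36 and Fabp5 0.67.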

How the data were processed

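RNA of single cells was measured in 4 libraries, 1 each for control, low-AFP, high-AFP and HCC. Per the labels' protocols, libraries were made with a 10x Genomics 3′ kit (version 2) and sequenced on a HiSeq 4000. Per the submitters' processing notes, Cell Ranger, R 3.0, Seurat 3 and mm9 were used, and per the file headers the matrices came from Cell Ranger 3.0.2. The deposited values are raw UMI counts, whole numbers for each gene in each barcode.

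A barcode passed with 300 genes or more, 500 UMIs or more and no more than 30% mitochondrial UMIs, which held for 6359, 5359, 8477 and 8004 of 11113, 9257, 11539 and 8929 (control to HCC). Scrublet's own threshold marked under 0.5% in each library, so 323, 230, 575 and 513 barcodes of highest score were dropped, a rate of 0.8% for each 1000 barcodes. Counts scaled to 10000 per cell gave 2000 variable genes without the 8 members, 30 components, 15 neighbours and 39 Leiden clusters at a resolution of 1 (scanpy 1.11.5, leidenalg 0.10.2), with no integration. Clusters were named from marker lists with at least 3 markers detected, and 34 were named. UMIs were summed per class and library. Fold changes are log2 ratios after adding 10 CPM, for classes of at least 50 cells in both libraries, and a member was counted at 2-fold. Shares of cells after thinning use 1000 UMIs per cell. The counting rule was tested on simulated data.

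The members, lists, comparisons and alternatives were chosen with earlier results of these data known. Named genes were all 8 members, list genes past 2-fold or highest in a class, and for each member those with the highest Pearson r. Alternatives changed the cell filters, doublet removal, clustering, gene set, pseudocount and scaling.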

Additional observations from a re-analysis of the deposited data

Results flagged for a closer look

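Fabp5 went opposite ways in hepatocyte-like and macrophage-like cells under the same comparison. In high-AFP against control its log2 fold was −1.06 in hepatocyte-like and 1.59 in macrophage-like cells. In low-AFP against control it was −2.03 in hepatocyte-like and 1.06 in macrophage-like cells. With 1 library per group, the difference between the classes was not tested. Both comparisons share the control library.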

How the results depend on the processing

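No paired analysis was possible because each group was 1 library, and for the same reason no replicate could be left out. Over all alternatives, 1297 log2 folds kept their side of 2-fold, 33 passed it newly, 17 no longer passed, 1 passed it newly in the other direction and 4 turned. Only folds past 2-fold in the main result could count as turned. Folds that stayed within 2-fold were counted as kept whatever their direction. The expected doublet rate in every library equalled the main setting, and leaving out the minimum level could not change a fold. The folds of both are counted among those kept. Of the levels, 736 stayed within the interval of the main result and 432 moved outside it. The alternatives on cluster 4, cluster 2, cluster 26 and cells of at least 5000 UMIs, and the finer macrophage split, were chosen after seeing the data.

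Counts of members past 2-fold that moved by more than 1.5 times are given next. In hepatocyte-like cells, HCC against high-AFP had 4 at a resolution of 0.5, without the 50 most abundant genes and as a mean over cells, and 0 in cluster 4 alone. High-AFP against low-AFP had 1, Fabp5, without doublet removal, with a pseudocount of 1 CPM, without the 50 most abundant genes, as a mean over cells and without the top cell, and 1, Slc27a5, in cluster 4 alone. High-AFP against control had 1 without doublet removal and with CPM over all UMIs. In endothelial-like cells, high-AFP against control had 0 at a mitochondrial limit of 15%. In macrophage-like cells, low-AFP against control had 1, Fabp5, at that limit, at a minimum of 1000 UMIs, with CPM over all UMIs and in cluster 2 alone, and 1, Fabp1, without doublet removal. High-AFP against control had 4 with the members among the variable genes or as a mean over cells, and 2 with a pseudocount of 1 CPM. Within 1.5 times, HCC against high-AFP in hepatocyte-like cells gained Cd36 at a mitochondrial limit of 15% (−1.14), with a pseudocount of 1 CPM (−1.06) and without the top cell (−1.02), and Slc27a2 at a minimum of 1000 UMIs (−1.05).

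The log2 folds that turned in HCC against high-AFP were Fabp4 in macrophage-like cells (−0.13 without doublet removal), Fabp5 (−0.18) and Slc27a5 (0.20) in cluster 4 alone, and Cd36 (0.31) in cluster 26 alone. The pericentral over periportal ratio in HCC turned for Fabp4 (0.408 and 0.406 at resolutions of 0.5 and 2, against 4.05) and Slc27a5 (0.708 in cluster 4 alone). Ratios within 2-fold in the main result were not checked for turning. The single-cluster settings use fewer cells, and otherwise the cause was not tested. Among hepatocyte-like cells depth limits HCC most, where 147 were under 1000 UMIs.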

Other observations

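Cluster 22, which no marker list named, held 365 of its 374 cells in HCC, at a median of 1569 UMIs, and was led by Oat, Gstm2, Glul and Nkd1. Glul makes glutamine in pericentral hepatocytes, and Nkd1 is a target of WNT signalling. In HCC its cells had 33931 CPM of Fabp1 and 2223 CPM of Fabp2, against 15542 and 584 CPM in the hepatocyte-like cells of HCC. Fabp5 was at 43.9 CPM, against 672 CPM in cluster 18 of HCC, and Afp at 48.0 against 408 CPM. Slc27a2 and Slc27a5 were at 27.5 and 29.6 CPM, and Cd36 at 16.3 CPM. These cells thus paired the highest Fabp2 level of the sums described here with low levels of both SLC27 genes.

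Cluster 10, also unnamed, had 327, 179, 227 and 84 cells from control through low-AFP and high-AFP to HCC, at a median of 745 UMIs. Fabp2 was among its 10 leading genes.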
